A study of Rattus norvegicus with 18 samples.

Results

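The genes described are the 133 of 19880 genes in the deposited table whose symbol begins with Kcn, Cacn, Scn plus a digit or Hcn plus a digit, the symbols of voltage-gated and related cation channel subunits. Potassium channel genes made up 91 of them, calcium channel genes 24, sodium channel genes 14 and pacemaker channel genes 4. RNA was sequenced from primary ventricular cardiomyocytes of Sprague-Dawley rats on postnatal day 2, with 3 libraries in each of 6 groups. Groups of cells were infected with adenovirus ad-sORF6, ad-sORF7 or ad-sORF8, each carrying a short open reading frame (sORF). For each of these viruses, a further group was given what the labels call the control virus for it. All 6 groups, controls included, were treated with 20 µM phenylephrine for 24 h, a drug that makes cardiomyocytes grow by stimulating alpha-1 adrenoceptors. No label says that replicates were cultured apart, and a p-value here covers the variation among the sequenced libraries alone, technical variation included.

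A cardiomyocyte fires when sodium channels open, holds its plateau through L-type calcium channels and repolarises through several potassium channels. Each pore-forming protein works with accessory subunits that set its gating, its delivery to the membrane and its current density. Neonatal and phenylephrine-treated ventricular cells are known for T-type calcium channels and pacemaker channels, which adult ventricular muscle largely loses.

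Library totals ran from 15697177 to 17658137 counts, lowest in the control group of sORF8. Replicate counts differed by more than sampling noise in all 18 pairs, with a chi-square per degree of freedom of 2.75 to 4.13 in 14 pairs and 6.51 to 11.4 in the 4 pairs that held control replicate 2 of sORF6 or control replicate 1 of sORF7. By this measure these control libraries stood apart from the others of their groups, and results are also given without them. Root mean square deviations of log2 levels from the group mean were 0.167, 0.173 and 0.173 in control replicates 1, 2 and 3 of sORF6. They were 0.178, 0.164 and 0.163 in those of sORF7. The cultures matched their label: the 10 cardiomyocyte markers summed to 22077 to 35718 FPKM (fragment counts scaled to transcript length and library size) over the 18 libraries. Defining markers of endothelium (Cldn5) and of Schwann cells and neurons (Sox10, Th) were at or near 0, with highest values of 0.09, 0.22 and 0.07 FPKM. Fibroblast markers were present, with Col1a1 at 905 FPKM in the control-virus libraries. In such bulk RNA, fewer cells of a type and less RNA per cell cannot be told apart.

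RefSeq promoter windows of build GRCr8, from 250 bases before to 50 after a gene's start, were at hand for 89 of the 133 genes and for 6 of the 11 that changed with a virus. The 4 printed here belong to a pair of genes that rose together with sORF7 (Kcnd2 and Scn4b) and a pair that moved in opposite directions with sORF8 (Cacna2d2 higher, Kcna4 lower). Capitals mark any match on either strand to 6 motifs: the GC box with the letters GGGCGG, the TATA box with the letters TATAAA, the GATA factor site with the letters AGATAA, the E-box with the letters CANNTG, the cyclic AMP response element with the letters TGACGTCA and the CCAAT box. Matches of the last and the E-box can overlap. The window of Kcnd2 lies at chr4:50742235-50742534, that of Scn4b at chr8:54343623-54343922, that of Cacna2d2 at chr8:116950856-116951155 and that of Kcna4 at chr3:114215086-114215385, all on the plus strand and written 5′ to 3′.
Kcnd2: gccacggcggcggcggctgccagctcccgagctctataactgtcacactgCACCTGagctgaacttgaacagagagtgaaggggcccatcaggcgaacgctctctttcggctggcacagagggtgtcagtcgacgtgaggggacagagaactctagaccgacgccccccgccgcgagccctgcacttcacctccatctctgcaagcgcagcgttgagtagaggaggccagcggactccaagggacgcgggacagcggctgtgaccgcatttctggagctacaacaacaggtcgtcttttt
Scn4b: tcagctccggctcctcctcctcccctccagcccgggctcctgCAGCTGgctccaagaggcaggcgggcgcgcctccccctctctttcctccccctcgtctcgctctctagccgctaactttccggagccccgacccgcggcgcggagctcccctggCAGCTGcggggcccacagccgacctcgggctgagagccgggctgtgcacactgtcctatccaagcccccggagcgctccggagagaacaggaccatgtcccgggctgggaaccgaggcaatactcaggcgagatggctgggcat
Cacna2d2: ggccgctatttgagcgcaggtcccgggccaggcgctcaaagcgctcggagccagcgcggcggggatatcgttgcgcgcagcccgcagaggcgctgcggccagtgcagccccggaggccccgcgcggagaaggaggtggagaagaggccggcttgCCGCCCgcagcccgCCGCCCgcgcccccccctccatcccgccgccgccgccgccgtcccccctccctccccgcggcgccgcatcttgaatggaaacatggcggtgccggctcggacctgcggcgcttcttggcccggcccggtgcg
Kcna4: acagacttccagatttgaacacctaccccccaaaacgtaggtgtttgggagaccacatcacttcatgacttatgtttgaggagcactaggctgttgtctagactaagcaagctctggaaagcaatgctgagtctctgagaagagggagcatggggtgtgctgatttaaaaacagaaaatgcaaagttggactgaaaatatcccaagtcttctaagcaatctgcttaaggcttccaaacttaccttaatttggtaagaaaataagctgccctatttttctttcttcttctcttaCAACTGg

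The base composition of these windows ran from 41.7% GC in Kcna4 to 77.0% in Cacna2d2, with 61.7% in Kcnd2 and 70.0% in Scn4b. Cacna2d2 held 2 GC boxes, Scn4b 2 E-boxes, and Kcnd2 and Kcna4 each 1 E-box. Some genes have several windows. Over the 98 windows of the channel genes, 52.0% held a GC box, against 33.1% of 33469 windows of all genes. A TATA box stood in 3.06% of the channel windows, against 14.2% of all windows. The other shares were 9.18% against 11.6% for the GATA site, 68.4% against 72.1% for the E-box, 0% against 1.83% for the cyclic AMP response element and 24.5% against 37.5% for CCAAT. These matches describe letters only, and the median GC content was 61.7% with 1 window per channel gene and 51.7% in all windows.

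Over the 9 control-virus libraries, 41 of the 133 genes averaged at least 1 FPKM, 14 at least 10 FPKM and 35 under 0.1 FPKM. By class, 25 of 91 potassium, 9 of 24 calcium, 5 of 14 sodium and 2 of 4 pacemaker genes reached 1 FPKM. The highest level was that of Cacnb2, the beta subunit that carries L-type pores to the membrane, at 45.1 ± 2.91 FPKM (SD, n = 9). Cacna2d1, the alpha2delta subunit of the L-type channel, followed at 42.4 ± 3.24 FPKM, and Kcng2, a modifier subunit that forms no channel alone, at 41.3 ± 6.49 FPKM. The ranges of these 3 overlapped, so their order is not set, and it differed between control groups: in the sORF6 controls Cacna1g had 53.2, 45.9 and 51.3 FPKM and Cacnb2 47.7, 47 and 46.7 FPKM. Cacna1g, a pore of the low-voltage T-type channel, averaged 38.8 ± 12.3 FPKM and spread the most, from 21.4 to 53.2 FPKM.

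Among sodium channel genes, the beta subunit Scn3b stood at 23.4 ± 1.27 FPKM. Among repolarising channels, the rapid delayed rectifier pore Kcnh2 averaged 22.3 ± 4.10 FPKM, the slow delayed rectifier pore Kcnq1 17.7 ± 4.41 FPKM and its partner Kcne1 13.9 ± 3.51 FPKM. The last of the 10 highest was Cacna1c, the cardiac L-type pore, at 16.9 ± 2.9 FPKM, which made up 91.7% ± 1.2 of the L-type pore FPKM (SD over 18 libraries). Hcn4, the main pacemaker channel of the sinus node, averaged 7.97 ± 0.852 FPKM and gave 67.8% ± 3.79 of the Hcn FPKM.

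Several genes of the adult ventricular currents were low. The transient outward pores Kcnd3 and Kcnd2 averaged 2.96 ± 0.340 and 2.36 ± 0.266 FPKM, and Kcnip2, the subunit that speeds and enlarges that current, 0.628 ± 0.539 FPKM with library values from 0 to 1.43. The inward rectifier Kcnj2, which holds the resting potential, averaged 5.59 ± 0.694 FPKM. Kcnj11, the pore of the ATP-sensitive channel, averaged 8.85 ± 2.06 FPKM and its vascular counterpart Kcnj8 0.670 ± 0.271 FPKM. Kcnk3, a tandem-pore background channel, averaged 8.63 ± 1.18 FPKM, and the pacemaker gene Hcn2 3.41 ± 0.830 FPKM. Kcna5, the ultrarapid delayed rectifier of atrial muscle, was listed at 0.0222 ± 0.0460 FPKM.

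**Figure D1:**
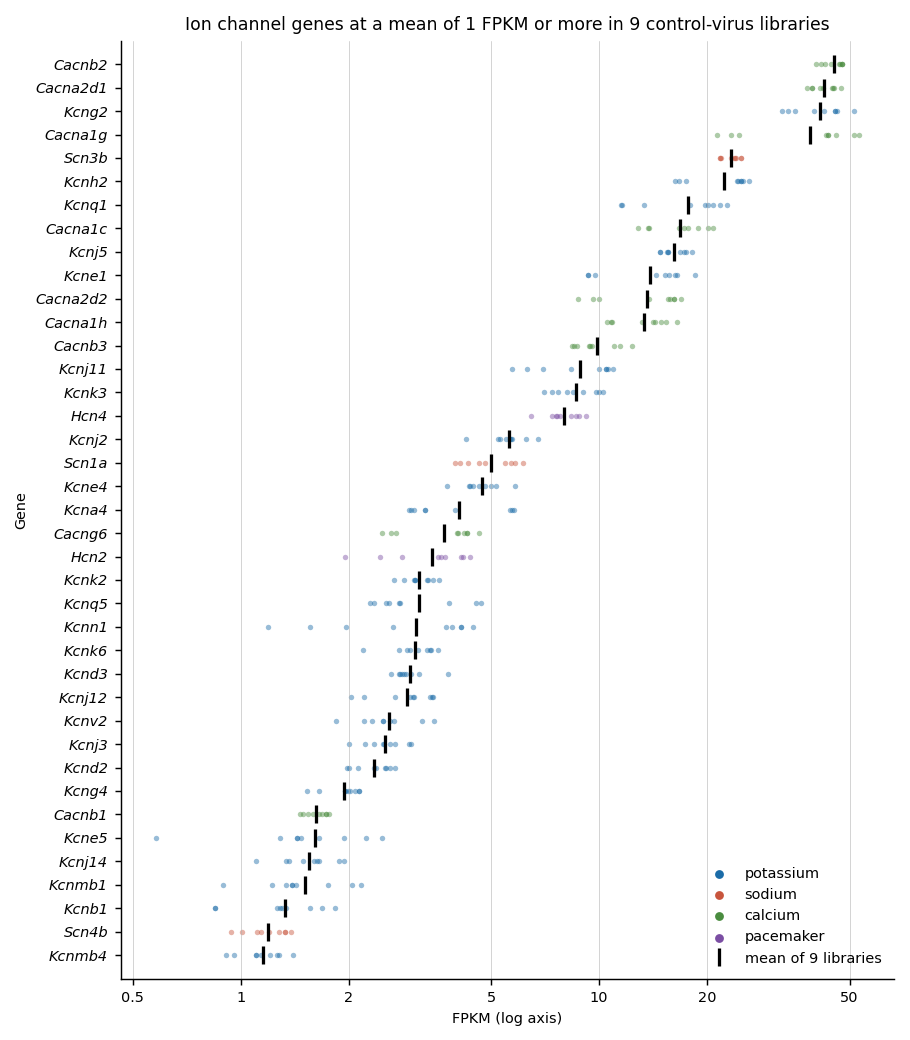
Level in FPKM (log axis) of 39 of the 41 ion channel genes that averaged at least 1 FPKM over the 9 control-virus libraries; each dot is 1 library, coloured by channel class, and the black tick is the mean. Cacnb2, Cacna2d1, Kcng2 and Cacna1g lead, and Cacna1g has separate low libraries near 21 to 25 FPKM.

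Each sORF virus was then compared with its own control virus, to ask which channel genes it changed. Of the 133 genes, 94 passed the filter on low counts (63 potassium, 15 calcium, 12 sodium and 4 pacemaker genes). The other 39, Kcna5 among them, had mean control FPKM of 0 to 0.319 and at most 14 counts in any library. Genes were called at an adjusted p under 0.05 in edgeR's quasi-likelihood test with Benjamini-Hochberg adjustment over all 14872 genes tested. The viruses together changed 11 channel genes in 14 calls: Cacna1g in 3 comparisons, Kcnd2 in 2 and the other 9 in 1 each.

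With sORF6, 3 of 94 channel genes changed (3.19%), against 3.86% of all genes tested. Cacna1g and Scn7a rose (2.13%, against 0.975% of all genes higher) and Kcnd2 fell (1.06%, against 2.88% lower). This count was 0 without sORF6 replicate 1 or 3, and 1 without control replicate 3. At an unadjusted p under 0.05 there were 10 channel genes (10.6%), against 15.2% of all genes. The channel genes had a median log2 fold change of 0.05, against 0.00 for all genes tested. In 20 of the 94 genes (21.3%) the groups did not overlap, against 20.6% of all genes.

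With sORF7, 6 channel genes changed (6.38%), against 7.77% of all genes. Kcnj3, Kcnd2, Scn4b and Kcna7 rose (4.26%, against 4.12% of all genes higher), and Cacna1g and Cacna1b fell (2.13%, against 3.66% lower). The count was 3 without control replicate 1 or without control replicate 2. Their median log2 fold change was -0.05, and the groups did not overlap in 18 genes (19.1%), against 23.1% of all genes.

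With sORF8, 5 channel genes changed (5.32%), against 3.76% of all genes. Cacna1g, Cacna2d2, Kcnh2 and Scn3b rose (4.26%, against 2.03% of all genes higher) and Kcna4 fell (1.06%, against 1.73% lower). The median log2 fold change was 0.09, and 29 of the 94 genes (30.9%) had groups without overlap, against 24.5% of all genes. Of these 29, 22 were higher with sORF8 (23.4%, against 11.6% of all genes) and 7 lower (7.45%, against 12.9%). Beside these changes, 5 of 10 cardiomyocyte markers rose with sORF8 and their FPKM summed to 25326 to 25535 in sORF8 libraries, against 22077 to 22156 in its control libraries; their part in the channel changes was not tested. With sORF6 1 of these markers rose and 1 fell, and their sum overlapped that of controls (33537.5 to 34291 FPKM, against 31111 to 35718). With sORF7 2 fell, and the sum was 29951 to 30296 FPKM, against 31160 to 34197 in controls. Fibroblast markers moved as well: 2 of 9 rose and 1 fell with sORF6, 3 fell with sORF7 and none was called with sORF8. Their sum was 1711 to 1808 FPKM with sORF6, against 1558 to 1699 in controls, and overlapped controls with sORF7 and sORF8. Of 8 smooth muscle and pericyte markers, 1 rose and 1 fell with sORF6, 1 fell with sORF7 and 1 rose with sORF8. The sum of these 8 was lower with sORF6 (1834 to 1934 FPKM, against 1973 to 2083 in controls). It was higher with sORF8 (1733 to 1856 FPKM, against 1635 to 1694) and overlapped controls with sORF7. Of 6 leukocyte markers, 2 fell with sORF6 and 2 with sORF7, and 1 of 3 endocardial or conduction markers tested rose with sORF8. Their part in the channel changes was not tested either.

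**Figure D2:**
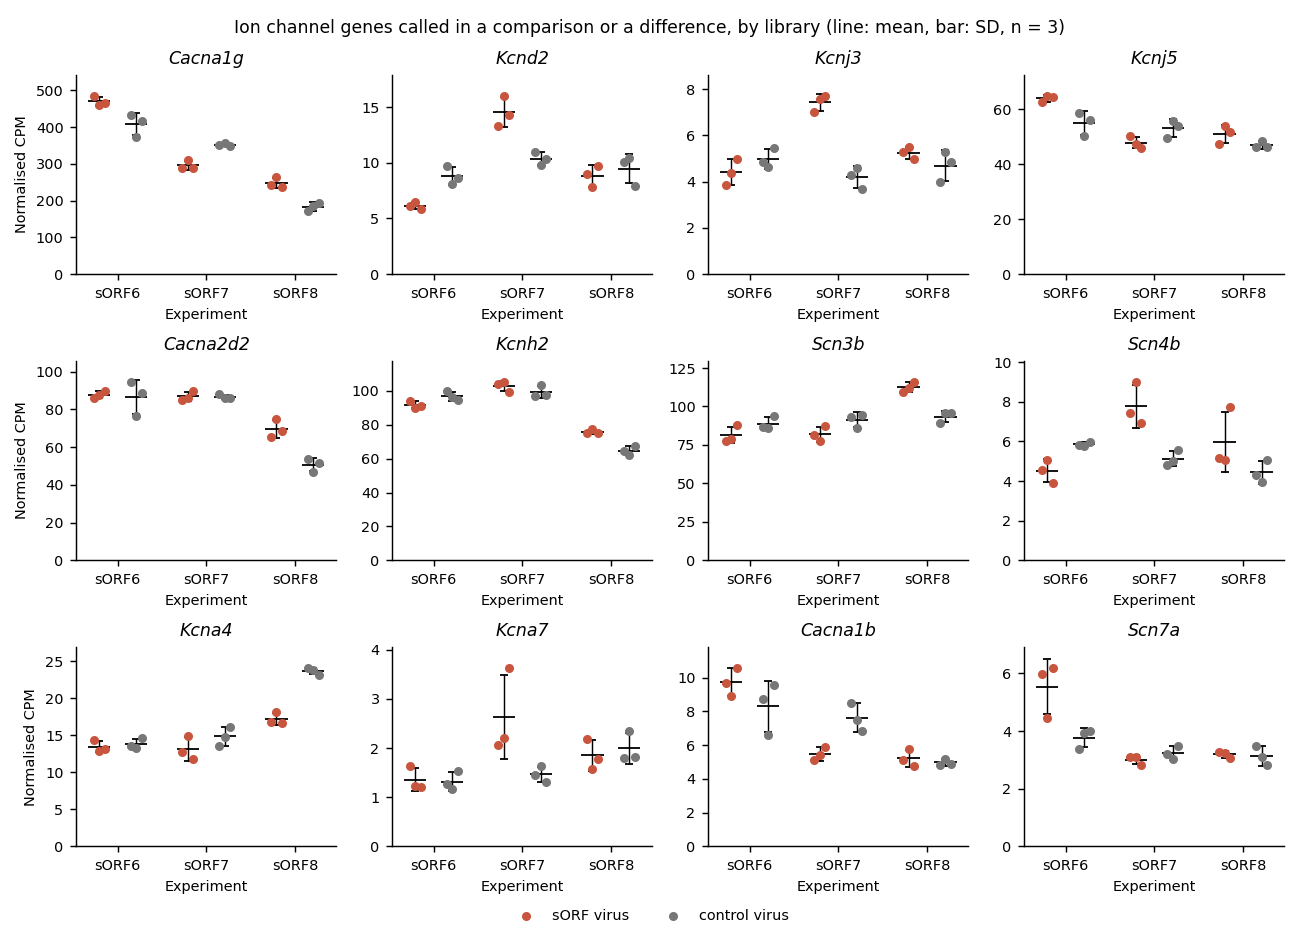
Normalised CPM (counts scaled to library size) of the 12 ion channel genes called in a comparison or in a difference between experiments; each point is 1 library, red for the sORF virus and grey for its control virus, with the mean as a line and the SD as a bar (n = 3). Cacna1g is apart from its control in all 3 experiments, higher with sORF6 and sORF8 and lower with sORF7.

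Calcium channels held the gene that changed in every experiment, Cacna1g (gene 29717, chromosome 10, 82116699 to 82197828, plus strand, Rnor_6.0). It had 485, 459.6 and 465 normalised CPM in sORF6 libraries, against 433, 374 and 417 in their controls. In sORF7 libraries it had 289, 309.6 and 289 normalised CPM, against 352, 356 and 349 in controls. In sORF8 libraries it had 243, 265 and 237 normalised CPM, against 170.3, 186 and 195 in controls. The groups did not overlap in any of the 3 experiments, with every sORF library above its controls for sORF6 and sORF8 and below them for sORF7. Log2 fold changes were 0.20 ± 0.05 with sORF6 (SE, edgeR adjusted p = 0.0411), -0.25 ± 0.05 with sORF7 (adjusted p = 0.00725) and 0.44 ± 0.06 with sORF8 (adjusted p = 0.000114). The calls with sORF7 and sORF8 held in each of 16 alternatives.

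The call with sORF6 was less firm and was lost in 11 of 16 alternatives, over which the Cacna1g adjusted p ran from 0.00688 to 0.184. Those included leaving out sORF6 replicate 1 (0.184), 2 (0.0706) or 3 (0.0998) and control replicate 2 (0.157) or 3 (0.0615). Its level also varied between experiments, with 248 ± 14.3 normalised CPM in sORF8 libraries and 408 ± 30.8 in the sORF6 controls (SD, n = 3 each). Cacna1g shares 230 bases with Abcc3 on the other strand, and the use of strand in counting is not stated in the sources.

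Cacna1g also gained or lost share within the T-type pore genes, whose other members are Cacna1h and Cacna1i. It held 78.6% ± 0.345 of their FPKM in sORF6 libraries, against 77.1% ± 0.747 in controls (SD, n = 3 each), and 72.4% ± 0.107 in sORF7 libraries, against 74.7% ± 0.741. In sORF8 libraries its share was 74.1% ± 0.579, against 68.0% ± 1.86 in controls. The ranges did not overlap in any experiment. Cacna1h was not called, with log2 fold changes of 0.06 ± 0.07, -0.08 ± 0.07 and 0.01 ± 0.07 with sORF6, sORF7 and sORF8.

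Cacna2d2, an alpha2delta subunit that increases calcium current (gene 300992, chromosome 8, 116154661 to 116285643, plus strand), rose with sORF8. It had 65.3, 74.7 and 68.7 normalised CPM in sORF8 libraries, against 53.6, 46.9 and 51.6 in controls. All sORF8 libraries were above all controls, and the log2 fold change was 0.46 ± 0.07 (edgeR adjusted p = 0.000580), called in all 16 alternatives. Its log2 fold changes were 0.02 ± 0.07 with sORF6 and 0.00 ± 0.07 with sORF7. Within the alpha2delta genes its share was 21.9% ± 0.882 of FPKM with sORF8, against 17.9% ± 1.99 in controls, and the rest was nearly all Cacna2d1, which was not called (log2 fold changes 0.00, -0.06 and 0.08).

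Cacna1b, the pore of the N-type channel of nerve terminals (gene 257648, chromosome 3, 1698176 to 1949622, minus strand), fell with sORF7. It had 5.10, 5.43 and 5.89 normalised CPM in sORF7 libraries, against 8.53, 7.52 and 6.82 in controls. Every sORF7 library was below every control, and the log2 fold change was -0.48 ± 0.14 (edgeR adjusted p = 0.0374). The call was lost in 12 of 16 alternatives (adjusted p 0.0165 to 0.192), among them without sORF7 replicate 1 (0.141), 2 (0.10) or 3 (0.0562) or control replicate 1 (0.169) or 2 (0.0794). Neither the L-type pore Cacna1c (log2 fold changes 0.08, -0.04 and 0.09 with sORF6, sORF7 and sORF8) nor the beta subunit Cacnb2 (0.08, -0.05 and 0.06) was called in any comparison.

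Among sodium channel genes, 2 beta subunits and an atypical pore each changed in 1 experiment. Scn3b (gene 245956, chromosome 8, 44136408 to 44159016, plus strand), a beta subunit of voltage-gated sodium channels, had 109, 112 and 116 normalised CPM in sORF8 libraries, against 89.4, 95.5 and 95.5 in controls. All sORF8 libraries were above all controls, and its log2 fold change was 0.27 ± 0.06 (edgeR adjusted p = 0.0104). Without sORF8 replicate 3 the adjusted p was 0.0507 and without control replicate 1 it was 0.0618, the highest of a range from 0.000960. Scn3b had log2 fold changes of -0.12 ± 0.06 with sORF6 and -0.16 ± 0.06 with sORF7, neither called, except with sORF7 when the replicate number was a block.

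Scn4b, a beta subunit linked to resurgent current and to long QT syndrome in humans (gene 315611, chromosome 8, 49440288 to 49456279, plus strand), rose with sORF7. It had 7.46, 9.0 and 6.91 normalised CPM in sORF7 libraries, against 4.81, 5.01 and 5.56 in controls. These ranges were apart, and the log2 fold change was 0.60 ± 0.16 (edgeR adjusted p = 0.0256). The call was lost in 5 of 16 alternatives (adjusted p 0.0179 to 0.126): without sORF7 replicate 1 (0.0569) or 2 (0.126), without control replicate 1 (0.0864) or 2 (0.0770), and without both control libraries that stood apart (0.0886). With sORF6 its value was -0.38 ± 0.17 and with sORF8 0.43 ± 0.17, neither called.

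Scn7a, an atypical sodium channel that senses extracellular sodium rather than voltage (gene 64155, chromosome 3, 52775779 to 52877365, plus strand), rose with sORF6. Its libraries had 5.99, 4.44 and 6.18 normalised CPM with sORF6, against 3.39, 3.94 and 3.99 in controls. All sORF6 libraries were above all controls, although replicate 2 lay near them. The log2 fold change was 0.55 ± 0.15 (edgeR adjusted p = 0.0418), and 13 of 16 alternatives lost the call (adjusted p 0.0117 to 0.191). Without sORF6 replicate 1 the adjusted p was 0.188 and without replicate 3 it was 0.191, while leaving out control replicate 1, 2 or 3 gave 0.166, 0.0769 and 0.0713.

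Among potassium channels, Kcnd2 moved in opposite directions in 2 experiments. It encodes a pore of the fast transient outward current, which shapes early repolarisation (gene 65180, chromosome 4, 48309283 to 48816804, plus strand). In sORF6 libraries it had 6.11, 6.48 and 5.83 normalised CPM, against 9.72, 8.11 and 8.66 in controls. In sORF7 libraries it had 13.3, 16 and 14.3 normalised CPM, against 11, 9.79 and 10.3 in controls. The groups did not overlap in either experiment: every sORF6 library was below its controls and every sORF7 library above them. The log2 fold change was -0.52 ± 0.12 with sORF6 (edgeR adjusted p = 0.0161) and 0.49 ± 0.11 with sORF7 (adjusted p = 0.0102). With sORF8 it was -0.10 ± 0.12, and the groups overlapped.

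The sORF6 call of Kcnd2 was lost without sORF6 replicate 1 (adjusted p = 0.0645), sORF6 replicate 3 (0.0820) or control replicate 1 (0.0947) and with only the libraries compared (0.0669), over a range from 0.00846. The sORF7 call was lost in 1 of 16 alternatives, without sORF7 replicate 2 (0.0577, with a range from 0.00475). Kcnd3, which forms the same current, was not called (0.09, -0.10 and 0.06 with sORF6, sORF7 and sORF8). Kcnd2 made up 30.7% ± 0.303 of the FPKM of the pair in sORF6 libraries, against 40.6% ± 5.13 in controls, and 57.1% ± 3.78 in sORF7 libraries, against 47.0% ± 1.72. Kcnip2, with library values from 0, had log2 fold changes of 1.21 ± 0.67, -1.05 ± 0.65 and 1.23 ± 0.78, overlapping groups and no call in edgeR. Without sORF6 control replicate 2, one of the libraries that stood apart, the Kcnip2 value with sORF6 was 2.82 (edgeR adjusted p = 0.0369), and without both such libraries 2.81 (0.0416). Kcnd2 shares 14818 bases with Tspan12 on the other strand and 550 bases with LOC102556178 on the same strand.

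Kcnj3, a subunit of the acetylcholine-activated inward rectifier that slows the heart under vagal input (gene 50599, chromosome 3, 41018488 to 41181070, plus strand), rose with sORF7. It had 7.01, 7.58 and 7.70 normalised CPM in sORF7 libraries, against 4.29, 4.60 and 3.67 in controls. Each sORF7 library was well above every control. The log2 fold change was 0.83 ± 0.14 (edgeR adjusted p = 0.000674), called in all 16 alternatives. With sORF6 and sORF8 it was -0.18 ± 0.14 and 0.16 ± 0.14, with overlapping groups.

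Kcnj5, which joins Kcnj3 in that channel (gene 29713, chromosome 8, 33435493 to 33463410, minus strand), was the more abundant of the pair. It had 62.5, 64.8 and 64.4 normalised CPM in sORF6 libraries, against 58.7, 50.1 and 56.1 in controls. Although these did not overlap, the log2 fold change of 0.22 ± 0.06 missed the threshold (edgeR adjusted p = 0.0547). Kcnj5 was called there by DESeq2 and, in edgeR, without control replicate 1 (adjusted p = 0.0327). With sORF7 it was -0.15 ± 0.06 (edgeR adjusted p = 0.173, and 0.0422 without both control libraries that stood apart) and with sORF8 0.12 ± 0.06. Kcnj3 made up 21.4% ± 1.59 of the FPKM of the pair in sORF7 libraries, against 12.1% ± 1.34 in controls. Kcnj5 shares 9240 bases with Fli1 on the same strand, so its reads could have been split between them.

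**Figure D3:**
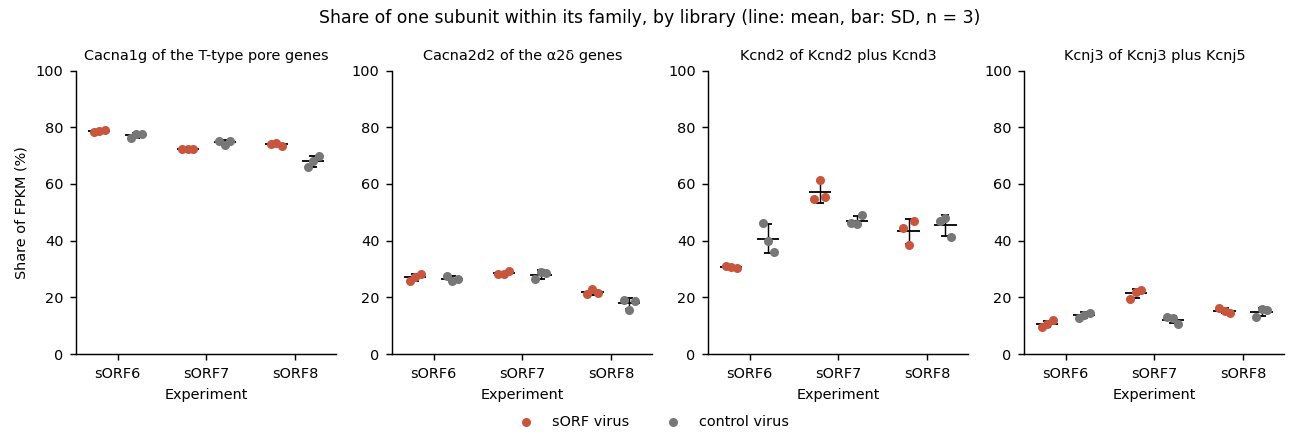
Share of one subunit in the FPKM of its family (%), by library and experiment; red points are sORF virus libraries and grey points control virus libraries, with the mean as a line and the SD as a bar (n = 3). The Kcnd2 share is lower than in controls with sORF6 and higher with sORF7, and the Kcnj3 share with sORF7 (21.4%) is above that of its controls (12.1%).

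Kcnh2 (gene 117018, chromosome 4, 7355066 to 7387282, plus strand), whose loss causes long QT syndrome in humans, rose with sORF8. It had 75.4, 77.3 and 74.9 normalised CPM in sORF8 libraries, against 64.4, 62.4 and 67.4 in controls. The groups did not overlap, and a log2 fold change of 0.23 ± 0.04 (edgeR adjusted p = 0.00460) was called in all 16 alternatives. Its partners in late repolarisation were not called, with log2 fold changes of 0.15 ± 0.07 for Kcnq1 and 0.17 ± 0.13 for Kcne1 with sORF8.

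Kcna4, a pore of the slowly recovering transient outward current that is known from immature and hypertrophied myocardium (gene 25469, chromosome 3, 98293295 to 98300763, plus strand), fell with sORF8. It had 16.9, 18.1 and 16.6 normalised CPM in sORF8 libraries, against 24.1, 23.9 and 23.2 in controls. All sORF8 libraries were below all controls, at a log2 fold change of -0.46 ± 0.08 (edgeR adjusted p = 0.00280), called in all 16 alternatives. Both groups were nonetheless above the 13.5 ± 0.761 and 13.2 ± 1.56 normalised CPM of sORF6 and sORF7 libraries.

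Kcna7, a voltage-gated pore known from skeletal muscle and heart (gene 365241, chromosome 1, 101397828 to 101403320, plus strand), rose with sORF7 at a low level. It had 2.07, 2.21 and 3.63 normalised CPM in sORF7 libraries, against 1.45, 1.63 and 1.32 in controls. The groups did not overlap, and sORF7 replicate 3 was far above the other libraries. The log2 fold change was 0.84 ± 0.25 (edgeR adjusted p = 0.0415), and 9 of 16 alternatives lost the call (adjusted p 0.0309 to 0.234). It was 0.54 without sORF7 replicate 3 (adjusted p = 0.234), and leaving out control replicate 1, 2 or 3 gave adjusted p of 0.103, 0.0700 and 0.119.

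The remaining carriers of known currents did not pass the test. Kcnj2 had log2 fold changes of -0.01, -0.04 and -0.14 with sORF6, sORF7 and sORF8, Kcnj11 of 0.04, -0.07 and 0.22, and Kcng2 of 0.06, 0.01 and 0.14. Kcnk3 had 0.07, 0.14 and -0.25, and Kcnj8 -0.50, 0.25 and -0.06. No pacemaker gene was called in a comparison of a virus with its control by edgeR (0 of 4; at an unadjusted p under 0.05 there was 1, Hcn2 with sORF8), and DESeq2 and the other fits did not call Hcn2 or Hcn4. Hcn4 had log2 fold changes of 0.02 ± 0.09, 0.12 ± 0.09 and 0.01 ± 0.10, and Hcn2 -0.16 ± 0.12, 0.20 ± 0.11 and 0.26 ± 0.12.

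**Figure D4:**
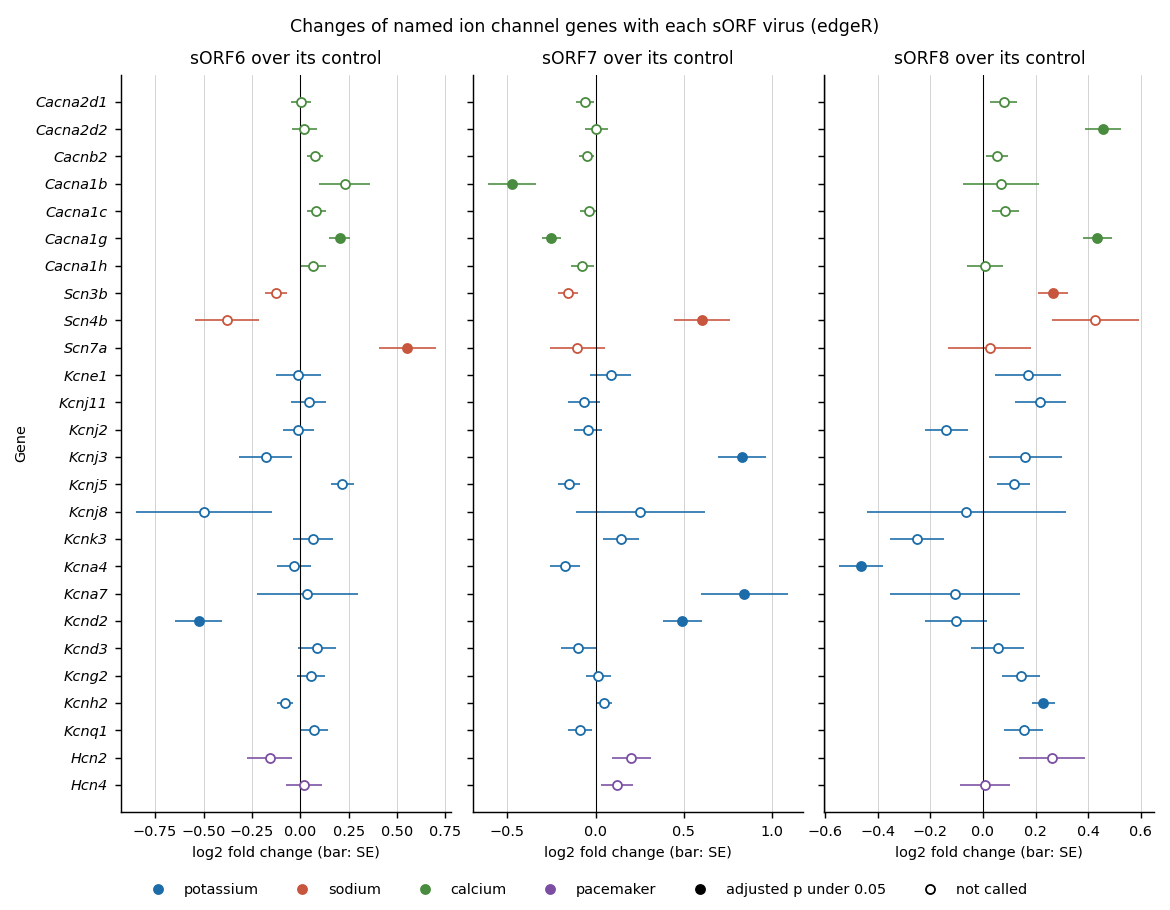
Log2 fold change (sORF virus over its control, bar: SE) of 26 of the named ion channel genes in the 3 experiments, coloured by channel class; filled points passed the edgeR test at an adjusted p under 0.05. Cacna1g is filled in all 3 panels, on the right for sORF6 and sORF8 and on the left for sORF7; the 3 panels have different horizontal scales.

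The differences between the viruses' effects were tested directly, each effect being taken against its own controls. Between sORF7 and sORF6, 6 of 94 channel genes differed (6.38%), against 11.2% of all genes, 3 in each direction (6.29% of all genes higher and 4.88% lower). The effect of sORF7 exceeded that of sORF6 by a log2 difference of 1.02 ± 0.17 for Kcnd2 (edgeR adjusted p = 0.000345), 1.01 ± 0.19 for Kcnj3 (adjusted p = 0.00175) and 0.98 ± 0.23 for Scn4b (adjusted p = 0.00844). The effect of sORF7 was the lower one for Cacna1g (-0.45 ± 0.08), Kcnj5 (-0.37 ± 0.09) and Cacna1b (-0.71 ± 0.19). Kcnj5 and Kcnj3, subunits of one channel, thus differed in opposite directions.

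Between sORF8 and sORF6, 3 channel genes differed (3.19%), against 3.68% of all genes, of which 2.82% were higher and 0.867% lower: Cacna2d2 by 0.44 ± 0.09, Scn3b by 0.39 ± 0.08 and Kcnh2 by 0.31 ± 0.06, all higher with sORF8. Without both control libraries that stood apart the count was 5, these 3 among them. For Cacna1g, which rose in both, the difference was 0.23 ± 0.08 (edgeR adjusted p = 0.124). Between sORF8 and sORF7, 5 differed (5.32%), against 7.72% of all genes, 3 higher and 2 lower (3.92% and 3.80% of all genes). The effect of sORF8 was higher for Cacna1g (0.69 ± 0.08), Cacna2d2 (0.45 ± 0.09) and Scn3b (0.42 ± 0.08), and lower for Kcnj3 (-0.67 ± 0.19) and Kcnd2 (-0.60 ± 0.16). This count was 3 without sORF7 replicate 2, sORF7 control replicate 3 or sORF8 control replicate 2, each of which ended the calls of Kcnd2 (adjusted p 0.0770, 0.0510 and 0.0827) and Kcnj3 (0.0748, 0.0932 and 0.111). Leaving out sORF8 replicate 1 or 2 also ended both calls, with a count of 4.

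Channel genes also differed among cells that received only control virus. In a joint F test of the 3 control groups, 29 of 94 channel genes differed (30.9%), against 38.4% of all genes. In 21 of the 29, the sORF8 control libraries were below all 6 other control libraries, which is 22.3% of the channel genes tested, against 16.3% of all genes. In 5 they were above them (5.32%, against 16.4% of all genes: Kcna4, Kcnq5, Cacnb3, Kcnh1 and Kcnk3) and in 3 they overlapped (Cacna1s, Kcnip2 and Kcnk2). Of 15 calcium channel genes 10 differed, against 15 of 63 potassium, 3 of 12 sodium and 1 of 4 pacemaker genes. The cardiomyocyte markers summed to 22077 to 22156 FPKM in the sORF8 controls. That sum was 31111 to 35718 FPKM in the sORF6 controls and 31160 to 34197 in the sORF7 controls. The smooth muscle and pericyte sum was lower too (1635 to 1694, against 1973 to 2083 and 1982 to 2206). Fibroblast sums overlapped (1566 to 1598, against 1558 to 1699 and 1563 to 1719). The part of these markers in the channel differences was not tested.

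Cacna1g had 184 ± 12.3 normalised CPM in the sORF8 controls, against 408 ± 30.8 and 352 ± 3.44 in the sORF6 and sORF7 controls. It was thus 2.07-fold lower than the mean of those 6 libraries. Its edgeR adjusted p of 3.88e-11 is that of the joint F test of the 3 control groups. The sORF6 and sORF7 controls did not overlap for Cacna1g either, so that p does not measure the 2.07-fold difference alone. Kcnh2 and Cacna2d2 were 1.52-fold and 1.71-fold lower in the sORF8 controls than in the other 6, and Kcna4 was 1.65 times as high. The comparison of sORF8 with its controls shares these sORF8 control libraries, and its log2 fold changes were 0.44 for Cacna1g, 0.23 for Kcnh2, 0.46 for Cacna2d2 and -0.46 for Kcna4. Kcnn1, a calcium-activated potassium channel, was 2.43-fold lower in the sORF8 controls than in the other 6, and Kcnq1 1.73-fold lower. Neither was called with sORF8. The labels name a control virus for each sORF virus and do not say whether the control preparations were the same. Culture, virus preparation and experiment cannot be told apart.

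**Figure D5:**
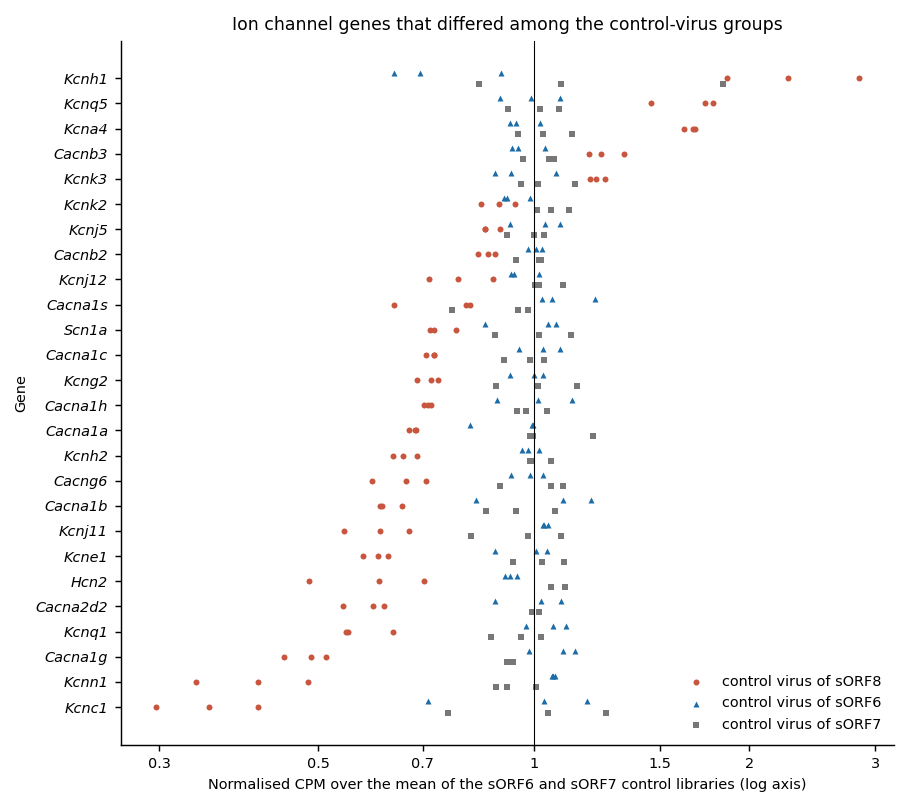
Normalised CPM of 26 of the 29 ion channel genes that differed among the control-virus groups, each value divided by the mean of the 6 control libraries of sORF6 and sORF7 (log axis); each point is 1 library, with the control virus of sORF8 in red, of sORF6 in blue and of sORF7 in grey. Most red points lie left of 1, with Cacna1g near 0.5, and those of Kcna4 and Kcnq5 lie to the right; Kcnip2, which has a library at 0, is among those not drawn.

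A list of 33 genes outside the channel families whose products bind, anchor or regulate these channels was examined beside them, 31 of them tested. With sORF6 1 of 31 rose, against 0.975% of all genes tested, and 0 of 31 fell, against 2.88%. The rise was that of Rem1, a small GTPase that lowers L-type current, at a log2 fold change of 0.48 ± 0.11 (edgeR adjusted p = 0.0124). With sORF7 5 of 31 rose and 2 of 31 fell, against 4.12% and 3.66% of all genes. Among the rises were those of Gem and Rrad, of the same GTPase family (0.41 ± 0.11 and 0.20 ± 0.06), Abcc9, the sulfonylurea receptor of ATP-sensitive channels (0.20 ± 0.05), and Atp1b1, a sodium pump subunit (0.10 ± 0.03). The falls were those of Slmap, a membrane-associated protein (-0.21 ± 0.03), and Slc8a1, the sodium-calcium exchanger (-0.19 ± 0.05).

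With sORF8 2 of 31 rose and 1 of 31 fell, against 2.03% and 1.73% of all genes. The rises were those of Abcc8, the other sulfonylurea receptor (0.48 ± 0.09), and Fxyd1, the phospholemman that regulates the sodium pump (0.28 ± 0.07). The 11 calls over the 3 experiments became 5, 7 and 7 without sORF7 replicate 1, 2 or 3 and 6 without sORF7 control replicate 1. The median log2 fold change of the 31 genes was -0.03 with sORF6, -0.01 with sORF7 and 0.08 with sORF8.

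The authors' deposited table gives q-values under 0.05 to 19 of 124 channel genes with sORF6 (15.3%, against 21.9% of all genes), to 20 of 122 with sORF7 (16.4%, against 27.4%) and to 26 of 126 with sORF8 (20.6%, against 22.7%). All 14 edgeR calls were among them (3, 6 and 5). In the authors' deposited table the log2 fold changes of Cacna1g were 0.19 with sORF6, -0.23 with sORF7 and 0.42 with sORF8, and those of Kcnd2 were -0.53, 0.51 and -0.12. With sORF7 the authors' deposited table also gives q-values of 0.0275 to Hcn2 and 0.0105 to Hcn4, with log2 fold changes of 0.23 and 0.15.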

How the data were processed

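RNA-seq of 18 libraries was analysed, with groups and replicate numbers taken from the sample titles. The authors deposited estimated counts per gene and library and FPKM values, made, per the submitters' processing notes, on build Rnor_6.0 with a tool list of HISAT2 2.0.4, RSEM 1.2.12 and DESeq2 1.4.5, given without roles. The authors' deposited log2 fold changes and q-values are used only where named; per the file headers the q-values carry the tag degseq. Strand use is not stated there.

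Estimated counts were rounded and tested with edgeR 4.0.16 (R 4.3.3, limma 3.58.1): filterByExpr kept 14872 genes, TMM scaling, 1 mean per group, 12 residual degrees of freedom, common biological coefficient of variation 6.90%, two-sided p-values adjusted over all genes tested. Normalised CPM use TMM-adjusted totals. Log2 fold changes are given ± SE, levels ± SD. FPKM compares levels between genes and depends on the transcript length used. The edgeR, DESeq2 and limma fits were tried on simulated counts with known changes.

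Named are all channel genes called in a comparison or a difference between experiments, the 10 with the highest control FPKM and 23 carriers of textbook currents. Some genes are not reported here. The members and lists were chosen with earlier results of these data known. Other fits used DESeq2 1.42.0 size factors and test, library totals, no filter (at least 1 count), limma on log2(FPKM + 1) and log2(FPKM + 0.1), only the libraries compared, a replicate block, a length offset, and each library left out.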

Additional observations from a re-analysis of the deposited data

Results flagged for a closer look

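The effects of 2 viruses on a channel gene, each taken against its own controls, differed in 14 cases, all by edgeR's quasi-likelihood test of the difference with adjustment over all genes. Between sORF7 and sORF6 the log2 differences were 1.02 for Kcnd2 (adjusted p = 0.000345), 1.01 for Kcnj3 (0.00175), 0.98 for Scn4b (0.00844), -0.37 for Kcnj5 (0.00885), -0.45 for Cacna1g (0.000506) and -0.71 for Cacna1b (0.0191). Between sORF8 and sORF6 they were 0.44 for Cacna2d2 (0.0106), 0.39 for Scn3b (0.00702) and 0.31 for Kcnh2 (0.00474). Between sORF8 and sORF7 they were 0.69 for Cacna1g (1.93e-05), 0.45 for Cacna2d2 (0.00515), 0.42 for Scn3b (0.00256), -0.67 for Kcnj3 (0.0431) and -0.60 for Kcnd2 (0.0304). For Kcnd2 and Cacna1g the sORF7 and sORF6 libraries lay on opposite sides of their controls in 3 of 3 libraries each. Each virus was set against its own control virus, so experiment and virus cannot be told apart in these differences. The Kcnj3 difference between sORF8 and sORF7 was lost in 14 of its alternatives (adjusted p 0.0175 to 0.111), that of Kcnd2 in 7 (0.00994 to 0.0857) and that of Cacna1b between sORF7 and sORF6 in 6 (highest adjusted p 0.111). The other 11 differences kept their call in every alternative run.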

How the results depend on the processing

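The 28 called values of named genes kept their call in 448 alternative fits, lost it in 84 and reversed in 0. For the comparisons with controls, the left-out libraries that ended a call are given with each gene. The calls of Scn7a, Cacna1b and Kcna7 were also lost with the DESeq2 test, without the filter, with only the libraries compared and with the replicate block. That of Cacna1g with sORF6 was also lost with both limma fits, only the libraries compared, the replicate block and the length offset. All 4 calls were lost without both control libraries that stood apart. The 76 values not called passed the threshold in 14 fits. The 41 genes of at least 1 FPKM stayed 41 when FPKM was rescaled by TMM. For sORF6, the 3 changed channel genes became 1 with limma on log2(FPKM + 1), with log2(FPKM + 0.1), with the replicate block and with the transcript length offset, and 0 with only the libraries compared. For the difference between sORF8 and sORF6, the 3 became 5 with only the libraries compared, with the length offset and without the 2 control libraries that stood apart, an alternative chosen after seeing the data. The 11 changes of partner genes became 18 with the length offset. The cause was not tested. Leaving out 1 library gave 0 to 2 changed genes for sORF6, 3 to 6 for sORF7, 4 to 6 for sORF8, 5 to 8, 3 to 4 and 3 to 5 for the differences of sORF7 from sORF6, sORF8 from sORF6 and sORF8 from sORF7, 24 to 29 for the controls and 5 to 12 for partner genes.

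No label says that replicate numbers pair the libraries, and the main test used no block. Over 9 same-numbered pairs of sORF and control library the correlation of deviations ran from -0.02 to 0.18, and 2 were over 0.1. Most sORF libraries correlated best with the control of their own number. The exceptions were sORF6 replicate 3, sORF7 replicate 3 and sORF8 replicate 1. Pairing was not tested further. With the block, 5 genes changed with sORF7 and 5 with sORF8. Over 12511 genes, log2 fold change and transcript length had a Spearman's rho of 0.23, -0.13 and 0.06 with sORF6, sORF7 and sORF8, across genes that are not independent replicates, and the channel genes were long (median 3653 bases, against 2554 for genes tested). Low counts limit the values of Kcna7, Kcnip2 and Kcnj8, and of the 39 genes not tested.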
